A study of Homo sapiens with 2 samples.

Results

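The cancer-testis antigen families of 2 lung cancer cell lines, H2087 and H596, were read from the RNA sequencing tables of these lines. A gene was a member if its symbol began with MAGEA, MAGEB, MAGEC, GAGE, PAGE, XAGE, SSX or CSAG and a digit, with CTAG1 or CTAG2, or with CT45A. Of 27685 listed genes, 88 were members. Among them, 85 belonged to the families by kind, and 3 shared only the letters of the name: SSX2IP, which encodes a protein that binds SSX2, the read-through MAGEA10-MAGEA5, and the antisense RNA MAGEA8-AS1. Each line gave 1 untreated library from cells grown in RPMI medium with 10% fetal bovine serum, and the labels call both lines lung adenocarcinoma. With no replicates, every comparison describes 2 libraries, no test was run, and intervals and limits cover counting error only. The estimated counts totalled 46961500 in H2087 and 55387847 in H596.

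Cancer-testis antigens are proteins whose genes are normally active in germ cells of the testis and are silent in most other adult tissues, but which many tumours produce. Most of these families lie on the X chromosome as repeated, nearly identical genes, and in somatic cells the promoters of many of them are methylated. Proteins of the MAGEA, MAGEB and MAGEC families share the MAGE homology domain, through which they bind RING ubiquitin ligases. MAGEA3 and MAGEA6 are known partners of the ligase TRIM28, and several of these antigens have been targets of tumour vaccines and T cell therapy.

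The 2 lines expressed different families. In H2087 the XAGE1 genes were high and the MAGEA and CSAG genes were at or near 0 counts. In H596 the MAGEA and CSAG genes of 1 block were expressed and XAGE1 was at 0 counts. GAGE, MAGEB, MAGEC, SSX proper and CTAG, the family of NY-ESO-1, had no count in either line.

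Promoters were compared because the MAGEA and CSAG genes that were expressed lie side by side, some of them with their starts close together and on opposite strands. RefSeq promoters of build GRCh38.p14 were matched for 58 of the 88 members, and the 250 bases before the start are shown for the members with the highest values. Capitals mark the longest stretch shared by all 10 matched MAGEA promoters, GGATGTGAC, and the 6-base forms CCGGAA and CCGGAT, which contain the core of ETS factor motifs, all on either strand. CCGGAT can overlap the shared stretch. Strands are those of GRCh38.p14, in which the MAGEA and CSAG block runs the other way round than in hg19, the build of the tables. The MAGEA3 and MAGEA6 windows had 0 differences, so they are shown once, and the XAGE1B and XAGE1E windows had 0 differences as well.
MAGEA3, chrX:152698544-152698793, plus strand, and MAGEA6, chrX:152769690-152769939, minus strand: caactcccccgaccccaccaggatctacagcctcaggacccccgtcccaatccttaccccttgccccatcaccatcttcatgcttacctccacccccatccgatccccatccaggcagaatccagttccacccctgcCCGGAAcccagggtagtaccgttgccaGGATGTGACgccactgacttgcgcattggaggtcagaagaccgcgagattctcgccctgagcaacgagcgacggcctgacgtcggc
MAGEA12, first listed start, chrX:152733507-152733756, plus strand: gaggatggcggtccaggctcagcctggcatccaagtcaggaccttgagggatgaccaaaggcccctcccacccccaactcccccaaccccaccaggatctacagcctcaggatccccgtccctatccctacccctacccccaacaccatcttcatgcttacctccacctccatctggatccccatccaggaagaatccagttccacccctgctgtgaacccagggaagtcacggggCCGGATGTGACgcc
CSAG1, chrX:152733722-152733971, minus strand: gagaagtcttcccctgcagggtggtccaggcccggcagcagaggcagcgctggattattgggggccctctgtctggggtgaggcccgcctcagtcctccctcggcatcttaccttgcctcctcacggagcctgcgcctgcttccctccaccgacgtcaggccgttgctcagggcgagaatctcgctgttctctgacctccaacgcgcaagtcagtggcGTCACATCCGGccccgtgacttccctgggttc
XAGE1E, listed in RefSeq as XAGE1B, first listed start, chrX:52517013-52517262, minus strand: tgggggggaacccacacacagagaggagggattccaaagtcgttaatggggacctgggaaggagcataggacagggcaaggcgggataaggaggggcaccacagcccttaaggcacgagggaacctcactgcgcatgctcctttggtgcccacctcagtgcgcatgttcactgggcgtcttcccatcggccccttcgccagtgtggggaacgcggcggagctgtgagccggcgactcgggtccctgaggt

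The 9-base stretch was in the promoters of 85 of 27305 genes of the RefSeq table (0.311%). Of the 58 matched members 13 held it, namely all 10 MAGEA genes, both matched CSAG genes and MAGEB16, which was named after the search. The search required it in all 10 matched MAGEA genes. It therefore cannot set apart the 6 of them with a count in either library from the 4 without. An ETS form was in 21.9% of all genes. Among matched members it was in all 10 MAGEA and both CSAG genes. It was also in 5 of 9 MAGEB, 2 of 3 MAGEC and 1 of 3 CT45A genes, and in 0 of the GAGE, PAGE, XAGE and SSX genes. MAGEB and MAGEC, which hold it in part, had no count in either line. These matches describe letters in a window, and binding was not measured. The windows of MAGEA12 and CSAG1 overlap on opposite strands, and so do those of MAGEA2 and CSAG3. The stretch and ETS form of each CSAG gene lie in this overlap. They are thus the bases of its MAGEA neighbour counted again, not separate matches.

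CG dinucleotides, the sites of DNA methylation, were counted in the same windows, with the richest start taken where a gene had several. The median was 12 over all genes, 15 over the 13 matched members with a count and 8 over the 45 without. The 13 include SSX2IP (26), which shares only the name. They also include CT45A10 (16) and PAGE2B (11), which rest on 3 and 4 counts. Among the 10 matched MAGEA genes it was 14 in the 6 with a count (11 to 18) and 7.5 in the 4 without (7 to 14). No promoter was matched for MAGEA1 (10 counts in H596) and CSAG4 (15 counts in H596), nor for MAGEA5 and MAGEA10, which had 0 counts in both libraries. At the first listed start, chosen after the data were seen, the MAGEA medians were 13 (5 to 18) and 7 (6 to 8), and the 5 belongs to the MAGEA12 window printed here, so the ranges overlap there too. Family members share sequence and are not independent, and methylation was not measured.

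Most members were silent. Both libraries had 0 counts for 73 of the 88 members (83.0%), against 30.4% of all genes. In H2087, 80 members (90.9%) had 0 counts against 36.3% of all genes, and in H596 77 members (87.5%) did against 36.0%. An FPKM of 1 was reached by 3 members in H2087 (3.41%, all genes 45.3%) and by 5 in H596 (5.68%, all genes 45.5%). FPKM is the number of fragments scaled to transcript length and to library size. One of these in each line was SSX2IP.

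**Figure D1:**
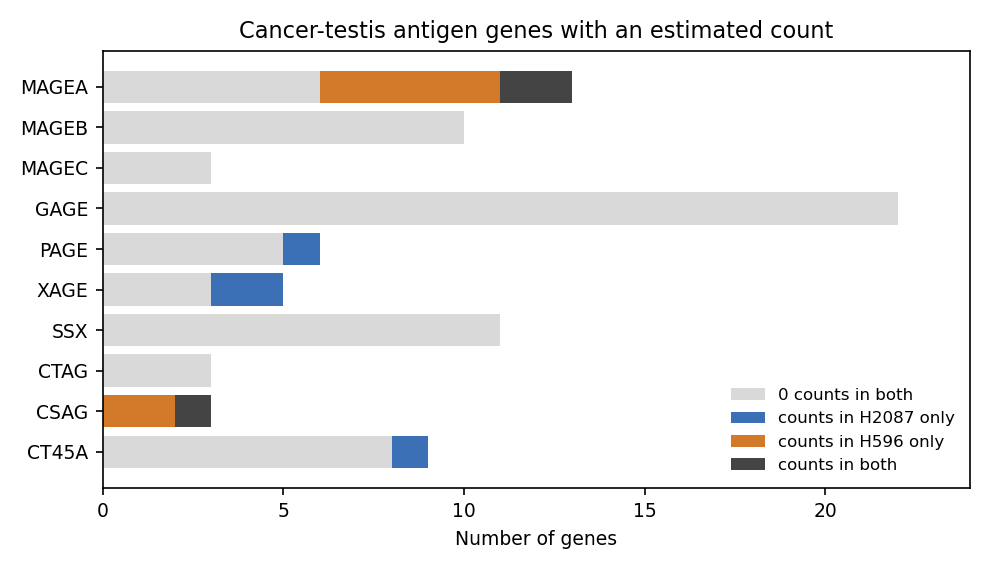
Bars show how many genes of each family had an estimated count in neither library, in H2087 only, in H596 only or in both, with the 3 genes that share only the name left out. All 22 GAGE, 10 MAGEB, 11 SSX, 3 MAGEC and 3 CTAG genes had 0 counts in both, and the 3 CSAG genes all had counts in H596.

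The silent families were GAGE with 22 genes, SSX with 11, MAGEB with 10, MAGEC with 3 and CTAG with 3. SSX proteins are nuclear repressors, known as fusion partners in synovial sarcoma. For these families, a summed count of 0 allows up to 0.0639 CPM (counts scaled to library size) in H2087 and 0.0542 in H596, taking 3 counts as the limit. Over all families, 22 of the 73 members with 0 counts in both libraries were listed at more than 1 locus. The limit does not cover how reads matching several loci were handled. PAGE and CT45A were at the edge of detection. PAGE2B (X 55101489 to 55105336 of hg19) had 4 counts in H2087 (FPKM 0.164, 95% Wilson interval 0.0636 to 0.421) and 0 in H596. CT45A10 (X 134945651 to 134975579) had 3 counts in H2087 (FPKM 0.0356) and 0 in H596. The other 5 PAGE genes and the other 8 CT45A genes had 0 counts in both libraries.

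XAGE1 was the highest family of H2087. XAGE proteins are small members of the GAGE-like group, and XAGE1 is known as an antigen of lung adenocarcinoma. In the gene table XAGE1E had an FPKM of 63.0 (95% Wilson interval 60.2 to 65.8) in H2087 and 0 in H596. XAGE1B had an FPKM of 48.4 (46.0 to 50.8) in H2087 and 0 in H596. Set against the limit of 3 counts, the counts were at least 773-fold and at least 614-fold higher in H2087. The other 3 XAGE genes had 0 counts in both libraries.

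In the hg19 listing these symbols do not stand for separate places. In GRCh38.p14 their first listed starts lie apart, with windows at X 52495627 to 52495876 (plus strand) for XAGE1B and 52517013 to 52517262 (minus strand) for XAGE1E. XAGE1B (gene 653220, which RefSeq now names XAGE1A) and XAGE1E (gene 653067, now XAGE1B) were each listed at the same 5 loci of hg19, between X 52238810 and 52546197, with the same 3 transcript lengths at each. The gene values keep 1 copy of each transcript. Summed over both symbols, the loci had FPKM values in H2087 of 76.0, 91.9, 71.9, 95.5 and 100.1. How reads that match several loci were shared was not stated in the sources used here. The level of XAGE1 in H2087 therefore depends on this sharing. It would be 53.3, XAGE1E at the highest locus, if every entry held the same reads, 100.1, both symbols at that locus, if only the loci did, and 435 (14000 counts, 95% Wilson interval 428 to 443) if each read was counted once. The sum would rank 143 among the genes of H2087. All 30 transcript rows were at 0 in H596.

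**Figure D2:**
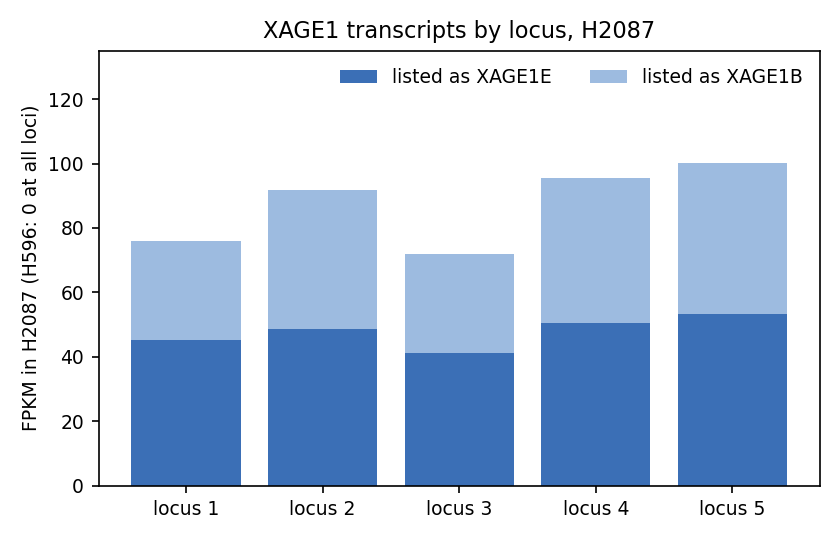
Stacked bars give the FPKM in H2087 at each of the 5 XAGE1 loci, split by the symbol under which the transcripts were listed. The loci lie between 71.9 and 100.1, with the split between XAGE1E and XAGE1B similar at each; H596 had 0 at all of them.

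By transcript form, 77.7% of the XAGE1 counts were assigned to the 732-base form that RefSeq lists as noncoding. The coding forms of 484 and 621 bases took 15.8% and 6.44%. The split differed between symbols for the 621-base form, with 780 counts under XAGE1E and 122 under XAGE1B. Since both symbols are listed at the same hg19 positions, this assignment is uncertain.

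In H596 the MAGEA and CSAG families were expressed. MAGEA3 (X 151934652 to 151938240 of hg19) had 942 counts in H596 (FPKM 9.63, 95% Wilson interval 9.03 to 10.3) and 2 counts in H2087 (FPKM 0.0242). MAGEA12 (X 151899293 to 151903184) had 440 counts in H596 (FPKM 4.57, 4.16 to 5.02) and 0 in H2087. MAGEA6 (X 151867232 to 151870825) had 207 counts in H596 (FPKM 2.11, 1.84 to 2.42) and 2 in H2087 (FPKM 0.0242). MAGEA3 was the highest of the family in H596, and its FPKM was 4.57 times that of MAGEA6 and 2.11 times that of MAGEA12, with Wilson intervals that did not overlap. The closest listed-length GENCODE transcripts of MAGEA3 and MAGEA6 had 23 differences over 1724 bases (98.7% identity), so the division of reads between these genes is uncertain.

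The 4 other MAGEA genes with counts had lower FPKM values in H596 and 0 counts in H2087. MAGEA2 and MAGEA2B had 0.436 and 0.328, and MAGEA1 and MAGEA11 had 0.103 and 0.0935, with 10 counts each. These genes fall outside the naming rule and were named after their values were seen. MAGEA2 and MAGEA2B were listed at the same 2 loci, which held 0.682 and 0.745 in H596, or 1.43 if each read was counted once. The other 6 MAGEA genes had 0 counts in both libraries. Summed over all copies the MAGEA family had 1775 counts in H596 and 4 in H2087, a 376-fold ratio of counts per library total (95% exact interval 147 to 1382).

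CSAG genes, which were first described as chondrosarcoma-associated, lie between the MAGEA genes. CSAG1 (X 151903227 to 151909518) had 315 counts in H596 (FPKM 8.38, 95% Wilson interval 7.51 to 9.36) and 3 in H2087 (FPKM 0.0476). The form NM_001102576 took 312 of the 315 counts in H596, and all 3 counts of H2087 were of the other form, NM_153478. CSAG3 had 46 counts in H596 (FPKM 0.985, 0.739 to 1.31) and 0 in H2087, and its 2 loci held FPKM values of 0.654 and 0.803. CSAG4, named after its value was seen, had 15 counts in H596 (FPKM 0.341) and 0 in H2087. Over all copies the family had 400 counts in H596 and 3 in H2087, a 113-fold ratio (95% exact interval 38.4 to 550.5).

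**Figure D3:**
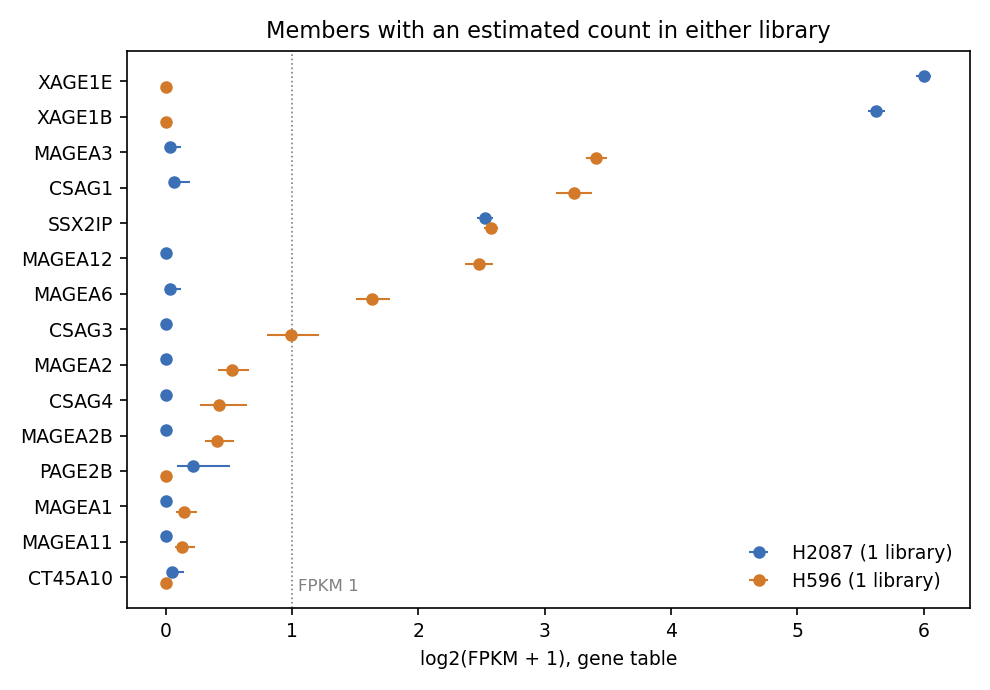
Points give log2(FPKM + 1) of the gene table for the 15 members with an estimated count, and bars are 95% Wilson intervals of counting error; each library is 1 sample. XAGE1E and XAGE1B are high in H2087 only, and SSX2IP is near 2.5 in both. MAGEA3, CSAG1, MAGEA12 and MAGEA6 are above an FPKM of 1 in H596 only. The other MAGEA and CSAG genes shown are below it in both.

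Apart from MAGEA1 and MAGEA11, the expressed MAGEA and CSAG genes lay in 1 block of 71.0 kb at X 151867232 to 151938240 of hg19, with no other listed gene inside. From left to right they are MAGEA6, CSAG3, MAGEA2, CSAG4, MAGEA12, CSAG1, MAGEA2 again, CSAG3 again and MAGEA3. MAGEA12 and CSAG1 face away from each other with 42 bases between their starts, and their FPKM values in H596 were 4.57 and 8.38. CSAG3 and MAGEA2 do so with 36 bases between them at both copies, and all 4 of these loci were below an FPKM of 1. Of CSAG3 only the form NR_130638 starts there, with 4 of 32 counts at the left copy and 5 of 38 at the right in H596. The other 2 forms, which took the remaining counts, start further from MAGEA2, at X 151877747 and 151927734. CSAG4 overlaps MAGEA12 on the same strand, so reads in the shared part cannot be told apart. The nearest other genes were GABRQ, 45.4 kb to the left with 48 counts in H2087 and 14 in H596, and CETN2, 57.6 kb to the right with an FPKM of 33.1 and 54.9. GABRQ had fewer counts in H596 and CETN2 was within 2-fold.

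**Figure D4:**
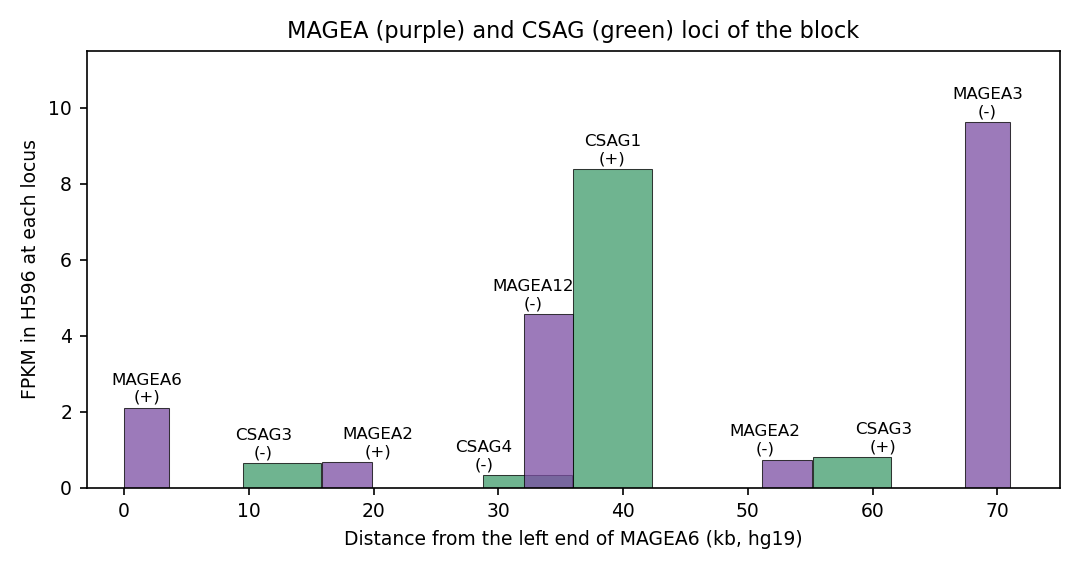
Bars give the FPKM in H596 at each locus of the block against the distance in kb from the left end of MAGEA6, with bar width the length of the locus and the strand in brackets; the MAGEA2 bars include MAGEA2B. MAGEA3 and CSAG1 stand highest, and the repeated CSAG3 and MAGEA2 loci lie between 0.654 and 0.803.

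On the scale of log2(FPKM + 1), 7 members had a mean FPKM of at least 1 and could be compared, and 81 were below it. MAGEA3 differed by 3.38, CSAG1 by 3.16, MAGEA12 by 2.48 and MAGEA6 by 1.60, H596 minus H2087. XAGE1E differed by -6.00 and XAGE1B by -5.63. So 4 of 7 were at least 2-fold higher in H596, where 18.2% of 13048 genes were, and 2 were at least 2-fold lower, where 14.2% were. Members that pass through 1 high library had to differ, so these shares describe the members and nothing more. SSX2IP, with 4.76 FPKM in H2087 and 4.95 FPKM in H596, differed by 0.05. The median difference of all genes compared was 0.12, against which those of other gene lists can be read.

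Other cancer-testis genes, outside these families, were looked at next. Of 40 listed, 12 could be compared, and 2 were higher in H596 and 3 lower, with a median difference of -0.33. Of all genes compared, 18.2% were higher and 14.2% lower. BRDT, a testis bromodomain protein, had 9.11 FPKM in H2087 and 0 FPKM in H596, with counts at least 587-fold higher in H2087. CT83, an X-linked antigen known as KK-LC-1, had an FPKM of 7.74 and 0. LDHC, the testis lactate dehydrogenase, had 3.38 and 0. ZNF165 (FPKM 2.49 in H2087, 8.61 in H596) and OIP5 (7.21 and 19.1) were present in both lines and higher in H596, by 1.46 and 1.29. PRAME (FPKM 1.83 in H2087, 0 in H596) and TPTE (0 and 1.78) did not reach the mean of 1 and were named after their values were seen. Genes of this list thus lay on either side, and with 12 compared their numbers are not set apart from the shares of all genes.

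MAGE genes of the broadly expressed type were mostly present in both lines. The 12 listed symbols held NSMCE3 also under its older symbol NDNL2, and the other 11 were found. Of these, 8 could be compared, 2 of them higher in H596 and 2 lower, with a median difference of 0.05. Over all genes compared, 18.2% were higher and 14.2% lower. MAGED2 had 23.6 FPKM in H2087 and 72.4 FPKM in H596, and NSMCE3, a subunit of the SMC5/6 complex, had 7.72 and 19.3. MAGED4 and MAGED4B had 3.26 and 3.10 in H2087 and 0 in H596, and these copies may share reads. MAGED4 is the nearest gene with a count to the left of the XAGE1 loci, 303 kb away, and like XAGE1 had counts in H2087 only. To their right FAM156B, 374 kb away, had 5.16 and 8.04. The other 4 compared genes differed by less than 2-fold.

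**Figure D5:**
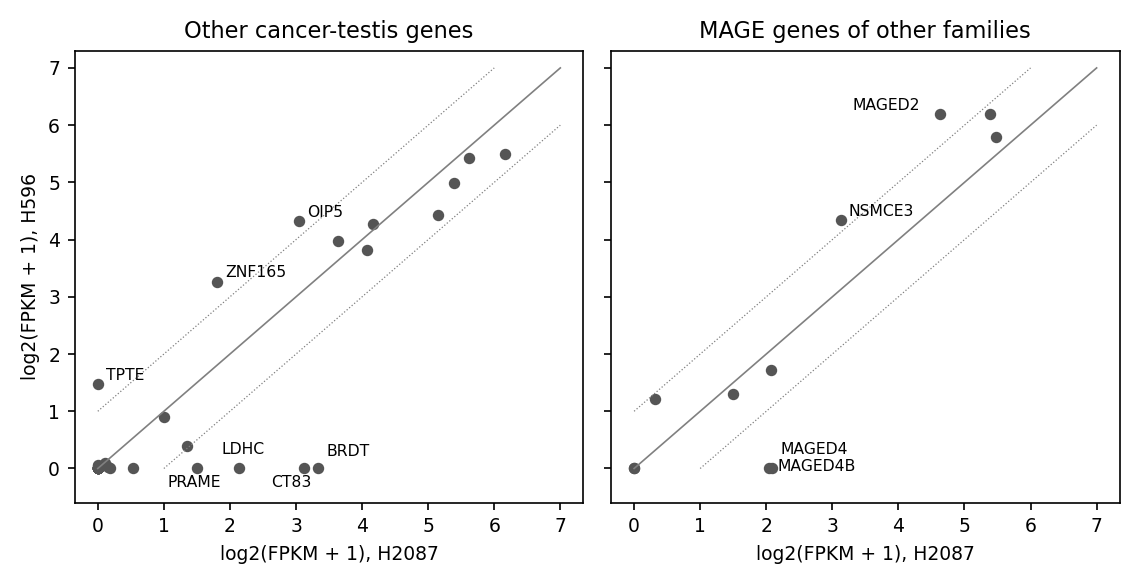
Each point is 1 gene, with log2(FPKM + 1) in H2087 on the x axis and in H596 on the y axis; the solid line is equality and the dotted lines mark 2-fold on this scale. Among other cancer-testis genes BRDT, CT83 and LDHC lie on the x axis with 0 in H596, and among the MAGE genes MAGED4 and MAGED4B do.

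Of 8 ligases that MAGE proteins bind, H2087 had 6 and H596 had 7 at or above an FPKM of 1. Of these 8, 7 could be compared, 1 was higher in H596 and 0 were lower, and the median difference was -0.0026. The shares over all genes compared were 18.2% higher and 14.2% lower. TRIM31 had 0.786 FPKM in H2087 and 4.39 FPKM in H596. TRIM28 was high in both, with 117 and 145. NSMCE1 (63.8 and 32.4) and PJA1 (6.14 and 3.63) were within 2-fold.

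Of 24 DNA methylation and germline silencing factors, 23 could be compared, 2 were higher in H596 and 0 were lower, with a median difference of 0.0062. These are smaller shares than the 18.2% and 14.2% of all genes compared, but they rest on only 23 genes. TET2, an enzyme that oxidises methylcytosine, had 1.24 FPKM in H2087 and 7.69 FPKM in H596. RING1, a Polycomb ubiquitin ligase, had 19.9 and 50.7. MAX, a partner of MGA in a germline-silencing complex, had 30.0 and 57.6, which is under 2-fold on this scale. DNMT1, the maintenance methyltransferase, had 41.7 and 41.8. Whether any of these bears on the antigens was not tested.

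The cell type labels were checked against markers. Both lines expressed epithelial genes: KRT7 had 791 FPKM in H2087 and 608 FPKM in H596, and CDH1 had 52.3 and 59.6. Of 9 epithelial and lung adenocarcinoma markers 8 could be compared, 5 were lower in H596 and 1, KRT19, was higher, with a median difference of -2.36. Among all genes compared, 14.2% were lower and 18.2% higher. The lung markers NKX2-1 and NAPSA and the keratin KRT18 had the largest differences of the list. NKX2-1 had 110 FPKM in H2087 and 0.508 FPKM in H596, NAPSA had 21.9 and 0.0645, and KRT18 had 3607 and 234. NKX2-1 and NAPSA were thus near 0 in H596. With other epithelial markers expressed there, this list does not settle the label of H596. SFTPB, a surfactant protein, was low in both lines, with 0.123 FPKM (22 counts) in H2087 and 0 in H596. The difference between the antigen families cannot be told apart from any other difference between the lines. Of 12 testis germ cell markers, 11 had 0 counts in each library and the highest FPKM was 0.0245. Of 5 melanocyte markers, only PMEL could be compared, with 1.42 in H2087 and 0.892 in H596.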

How the data were processed

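RNA from untreated H2087 and H596 cells, 1 library each, had been prepared with a stranded mRNA kit. Per the submitters' processing notes, bcl2fastq 1.8.4, Trimmomatic, HISAT2 2.0.5, StringTie 1.3.3b and hg19 were used. The authors deposited a gene table and a transcript table, in which each library has FPKM values and estimated counts. How the whole-number counts were made, how multi-mapped reads were divided and whether counting used strand are not given in the sources used here. For all 88 members the gene value equalled the sum over transcripts of the largest copy.

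The members and the gene lists were chosen with earlier results of these data known. Differences were log2(FPKM + 1), H596 minus H2087, for genes averaging an FPKM of 1 or more over both libraries, and those at least 2-fold apart were counted. Named were members with an FPKM of at least 1 in either library in the gene table or over all copies, the highest member of a family without one if above 0, and of each list the 3 largest differences and genes checking the labels. TRIM28, DNMT1, NSMCE3, ZNF165 and OIP5 were added after their values were seen. Wilson intervals (95%) of count shares were carried to FPKM, ratios had exact conditional intervals, and 0 counts were set to a limit of 3. The calculations were tested on simulated counts. Alternatives changed thresholds, the pseudocount, scaling (TMM and RLE of edgeR 4.0.16 in R 4.3.3) and the copies summed. Python 3.11.15, pandas 2.3.3 and scipy 1.17.1 were used. Promoters came from RefSeq (GRCh38.p14).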

Additional observations from a re-analysis of the deposited data

How the results depend on the processing

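Of 40 alternatives for the main counts and sums, 28 stayed within 1.5 times the main count or within counting error. The count of members at or above the FPKM threshold in H596 went from 5 to 10 at a threshold of 0.1, to 2 at 5 and to 11 with a minimum of 10 estimated counts. When a mean FPKM of 10 was required, the members higher in H596 went from 4 to 0, since only 2 were left to compare. Summed MAGEA in H596 (FPKM 17.3) was 41.9 as TPM and 32.0 as CPM over all copies, CSAG in H596 (9.71) was 23.5 and 7.22, and XAGE in H2087 (111.4) was 237.8 and 298. XAGE was 435 over all copies and 116.6 with TMM scaling. TPM and CPM are other units. Of 40 alternatives for single named members 9 moved beyond counting error, all by the copies or transcripts summed. No paired analysis was possible because H2087 and H596 were each sequenced once, from 1 library. The low members are limited by depth, since 4 members of H2087 rest on 1 to 3 counts.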
